A study of Mus musculus with 6 samples.

Results

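The keratin and biliary epithelial genes described here are Krt8, Krt18, Krt23, Krt7, Krt19, Epcam and Sox9, 7 of the 54532 genes in the deposited table. They were chosen by name: the keratin pair of hepatocytes, the keratins of bile ducts, Krt23, the surface protein gene Epcam and the ductal transcription factor gene Sox9. The list was drawn up because Krt23 separated the 2 groups of livers. Krt23 is therefore described without a test, and its values support nothing else. The values of the other 6 genes did not choose them, but the comparison is the one in which the list arose.

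RNA of whole mouse liver was sequenced in 6 libraries. The HKO group (3 libraries) came from mice with G3bp1 deleted in hepatocytes, and the Flox group (3 libraries) from litter controls with the floxed gene. G3bp1 encodes an RNA-binding protein of stress granules. All mice were fed a high-fat diet (HFD) from 6 weeks of age for 12 weeks, and there was no group on normal chow. The study addressed the role of G3BP1 in non-alcoholic steatohepatitis, a fatty liver with inflammation. The sources used here do not state which promoter drove the deletion, which exons it removed, or the strain and sex of the mice. Nor do they say that every library is a separate mouse, so the p-values measure only the spread between samples, and that spread may be technical.

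Keratins form the intermediate filaments of epithelial cells, always from a type II chain such as keratin 8 or 7 paired with a type I chain such as keratin 18, 19 or 23. Hepatocytes make mainly keratins 8 and 18, while the epithelial cells of bile ducts (cholangiocytes) also make keratins 7 and 19. Under injury, hepatocytes raise keratins 8 and 18 and can gather them in Mallory-Denk bodies, a lesion of steatohepatitis. Small ducts and progenitor-like cells that carry Epcam and Sox9 can expand in a ductular reaction. Krt23 is known in mouse liver as a keratin gene that depends on the fatty acid receptor PPARalpha.

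Krt8 and Krt18 are neighbours on chromosome 15 and are transcribed away from each other, with 23697 bases and no other gene of the table between them. Their upstream sequences are shown because this pair carries nearly all keratin RNA of the liver, and that of Krt23 because its values set the list apart. Each runs 5′ to 3′ on the strand of the gene and ends just before the start of the deposited gene model (RefSeq, GRCm38.p6). Krt8 is at chr15:102004483-102004592 on the minus strand, Krt18 at chr15:102027966-102028179 on the plus strand and Krt23 at chr11:99493138-99493370 on the minus strand. Capitals mark AGGTCA, the half-site that nuclear receptors such as PPARalpha can bind, searched on both strands.
Krt8: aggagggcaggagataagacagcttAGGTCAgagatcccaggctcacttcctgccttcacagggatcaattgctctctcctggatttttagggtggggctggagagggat
Krt18: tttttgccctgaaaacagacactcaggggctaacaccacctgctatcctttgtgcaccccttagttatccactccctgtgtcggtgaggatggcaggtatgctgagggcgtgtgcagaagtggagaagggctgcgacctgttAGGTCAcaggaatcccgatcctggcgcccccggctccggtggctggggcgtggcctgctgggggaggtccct
Krt23: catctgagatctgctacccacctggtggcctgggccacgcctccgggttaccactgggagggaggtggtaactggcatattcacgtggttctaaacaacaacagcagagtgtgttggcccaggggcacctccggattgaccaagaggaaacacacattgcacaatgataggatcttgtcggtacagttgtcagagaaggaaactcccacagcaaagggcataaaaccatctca
AGGTCA was found in 1 place upstream of Krt8, in 1 place upstream of Krt18 and in 0 places upstream of Krt23. Windows of the same lengths upstream of all RefSeq genes held it in 6.36%, 12.3% and 13.2% of cases. The motif TATAAA, likewise searched on both strands, was found in 0 of these 3 shortened windows. Of the same comparison windows, 5.63%, 9.71% and 11.9% held it. These are matches of letters and say nothing of binding.

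Levels are given as FPKM, reads per kilobase of gene scaled by a library size, which is the unit the authors deposited. Whole reads could be recovered from them, and 15804115 to 17954066 reads per library fell on genes. G3bp1 stood at 4.66, 4.27 and 4.44 FPKM in the HKO livers, against 8.46, 8.46 and 9.10 FPKM in the Flox livers, so each library matched its label. Its ratio of means was 0.514, with a log2 fold change of -0.83 (SE 0.0879, limma adjusted p = 0.110). Of 11856 genes tested with limma on log2(FPKM + 1), those below a Benjamini-Hochberg adjusted p of 0.05 numbered 1 lower (Gm12411, named after its value was seen) and 0 higher in HKO, and 904 passed an unadjusted 0.05. The HKO and Flox libraries did not overlap in 13.3% of the genes tested. The 10 hepatocyte markers summed to 42835 to 51977 FPKM in HKO and 49253 to 51142 FPKM in Flox, and Alb alone averaged 29588 FPKM. Their log2 fold change was above 0 in 3 and below 0 in 7, and 0 passed. HKO lay wholly above Flox in 1 of the 10 and wholly below in 2. Over all genes tested the shares were 6.06% and 7.21%. Of the 8 Kupffer cell markers, all were higher in HKO and 0 passed. HKO lay wholly above Flox in 4 of the 8 and wholly below in 0. Their summed level was 128 to 207 FPKM in HKO and 78.8 to 151 FPKM in Flox. The 7 markers of monocyte-derived macrophages summed to 54.3 to 72.7 FPKM in HKO and 41.6 to 52.1 FPKM in Flox. Of these, 3 were tested and 0 passed, and HKO lay wholly above Flox in all 3, beside 6.06% of all genes tested. The part of these cells in the results below was not tested.

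**Figure D1:**
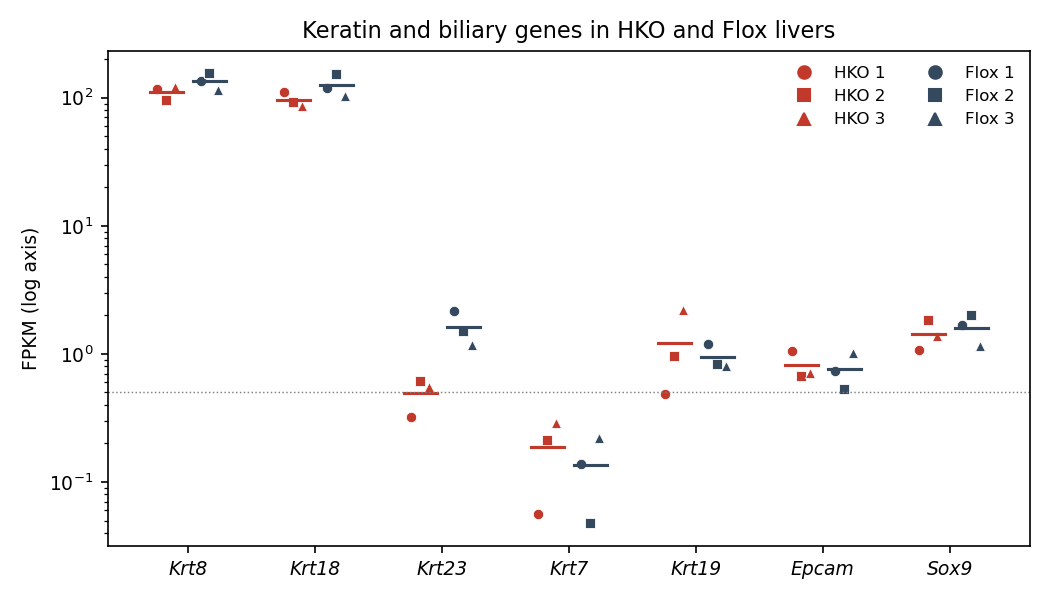
FPKM of the 7 genes (log axis) in each HKO library (red, left) and each Flox library (blue, right), with the group mean as a bar and 0.5 FPKM, the level asked for in at least 3 libraries before a gene was tested, as a dotted line. Krt8 and Krt18 sit near 100 FPKM, the other 5 genes between 0.0478 and 2.21 FPKM, and the 2 groups are apart for Krt23.

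Among the 7 genes, Krt8 and Krt18 stood far above the rest. Averaged over the 6 libraries they reached 122.8 and 110.5 FPKM, against 1.52 FPKM for Sox9, 1.08 for Krt19, 1.06 for Krt23, 0.787 for Epcam and 0.161 for Krt7. In the HKO livers the order of the low genes was Sox9, Krt19, Epcam, Krt23 and Krt7, at 1.44 ± 0.392, 1.22 ± 0.889, 0.813 ± 0.206, 0.496 ± 0.152 and 0.186 ± 0.120 FPKM (SD, n = 3). In the Flox livers it was Krt23, Sox9, Krt19, Epcam and Krt7, at 1.62 ± 0.501, 1.61 ± 0.429, 0.943 ± 0.217, 0.761 ± 0.247 and 0.135 ± 0.0859 FPKM (SD, n = 3). Krt19 and Epcam lay within 1 SD of Krt19 of each other in both groups, as did Sox9 and Krt19 in the HKO livers and Krt23 and Sox9 in the Flox livers. Krt7 was below the filter, and 6 of the 7 genes entered the test. Of the 5 tested besides Krt23, 0 passed at an adjusted p under 0.05, as with limma's voom on recovered reads, and 0 passed an unadjusted 0.05. In limma 0.00843% of all genes tested passed the adjusted threshold, all of them lower in HKO, and 7.62% passed the unadjusted one. All 5 overlapped between groups, while HKO lay wholly above Flox in 6.06% and wholly below in 7.21% of all genes tested.

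Krt8 and Krt18, the hepatocyte pair, had lower means in HKO, by less than the fit could separate from the spread between libraries. Krt8 (ENSMUSG00000049382, chromosome 15, 101996698 to 102004482, minus strand, GRCm38) stood at 116, 96.4 and 121 FPKM in the HKO livers, against 135, 155 and 115 FPKM in the Flox livers. HKO 1 and HKO 3 lay above Flox 3, so the groups overlapped. The means were 111 ± 12.8 FPKM in HKO and 135 ± 20.2 FPKM in Flox (SD, n = 3 each), a ratio of 0.824. The log2 fold change in limma was -0.27 (SE 0.156, adjusted p = 0.685). These values rest on 3150 to 4507 reads per library, and 5.16% of the Krt8 exon bases overlap the gene Gm36026 on the other strand, whose reads cannot be told apart with this library kit.

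Krt18 (ENSMUSG00000023043, chromosome 15, 102028180 to 102032027, plus strand) stood at 109.7, 92.4 and 85.7 FPKM in the HKO livers, against 118, 154 and 103 FPKM in the Flox livers. HKO 1 lay above Flox 3, and the 2 highest values were those of Flox 1 and Flox 2. The means were 95.9 ± 12.4 FPKM in HKO and 125 ± 26.3 FPKM in Flox (SD, n = 3 each), a ratio of 0.766, with a log2 fold change of -0.37 (SE 0.179, adjusted p = 0.667 in limma). Flox 2 was the highest library for both genes. Fewer hepatocytes and less keratin RNA per hepatocyte cannot be told apart in whole liver.

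Both genes kept the lower mean in HKO under every scaling tried, with log2 fold changes of -0.096 and -0.19 under TPM and -0.15 and -0.23 under quantile normalization. TPM sets the sum of every library equal and moves the median of all genes tested up by 0.15. Relative to that median, Krt8 and Krt18 stood at -0.24 and -0.34 under TPM. Flox 2 carried much of the difference: without it the log2 fold changes of Krt8 and Krt18 were -0.17 and -0.21. Without HKO 2, the lowest library for Krt8, they were -0.18 and -0.34.

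The proportion of Krt8 to Krt18 does not depend on the factor by which a library was scaled. Their FPKM ratio was 1.06, 1.04 and 1.41 in the HKO livers and 1.14, 1.005 and 1.11 in the Flox livers. HKO 3 stood above the rest, and the other 5 libraries lay close to an even ratio. In HKO 3 Krt18 was at its lowest of all libraries (85.7 FPKM), while Krt8 (121 FPKM) lay below Flox 1 and Flox 2. On the log2 scale the ratio averaged 0.21 ± 0.244 in HKO and 0.12 ± 0.0959 in Flox (SD, n = 3), a difference of 0.096 with a two-sided exact permutation p of 0.8, where 3 against 3 libraries allow 0.1 at the smallest. Without HKO 3 the difference was -0.045. Krt8 and Krt18 together made up 99.3%, 98.7% and 98.0% of the summed keratin FPKM in the HKO livers and 98.1%, 98.9% and 98.8% in the Flox livers.

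Krt23 (ENSMUSG00000006777, chromosome 11, 99477974 to 99493137, minus strand), a type I keratin gene outside the hepatocyte pair, stood at 0.324, 0.613 and 0.551 FPKM in the HKO livers, against 2.16, 1.51 and 1.18 FPKM in the Flox livers. The 2 groups did not overlap, which is what chose the list. The nearest values across the gap were 0.613 FPKM in HKO 2 and 1.18 FPKM in Flox 3. Behind them stood 9, 16 and 16 reads in HKO and 52, 35 and 31 reads in Flox. The exact Poisson 95% intervals, which cover counting error only, ran from 4.12 to 17.1 reads in HKO 1, from 9.15 to 26.0 reads in HKO 2 and HKO 3, and from 21.1 to 44.0 reads in Flox 3, the lowest Flox library.

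The ratio of the Krt23 means was 0.307. On the log2(FPKM + 1) scale the fold change was -0.79 (SE 0.158), the 101st lowest of 11856 genes. The pseudocount of 1 is as large as the level itself and shrinks this value: with a pseudocount of 0.1 it was -1.52 and with voom on recovered reads -1.67. Set against Krt18 of the same library, Krt23 made up 0.296%, 0.663% and 0.644% of the Krt18 FPKM in the HKO livers and 1.83%, 0.976% and 1.14% in the Flox livers, which restates the values that chose the list.

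**Figure D2:**
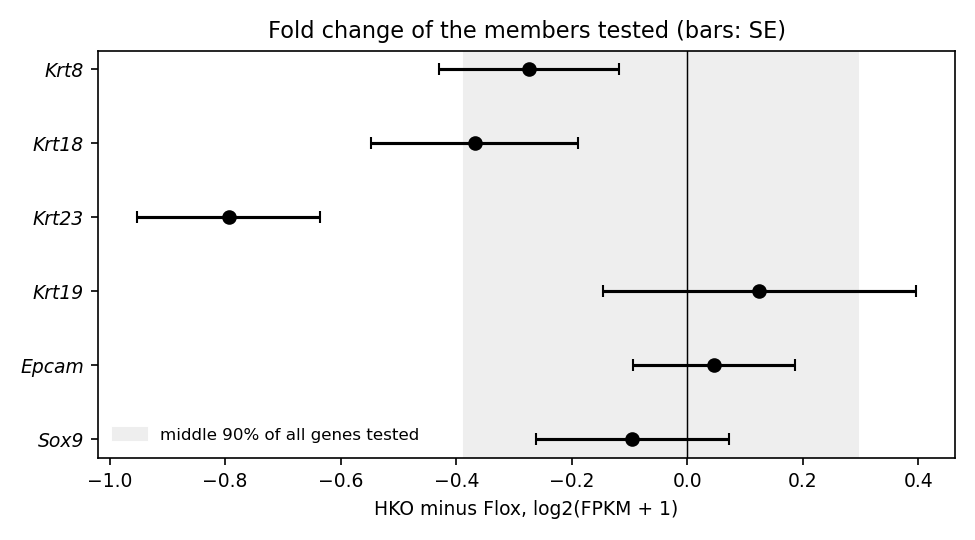
Log2 fold change (HKO minus Flox, from log2(FPKM + 1), bars are the SE of limma) of the 6 genes tested, with the range from the 5th to the 95th percentile of all genes tested in grey. Krt23, whose values chose the list, lies at -0.79, outside the grey range of -0.39 to 0.30, and the other 5 points lie inside it.

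The bile duct keratins Krt19 and Krt7 were rare and uneven between livers. Krt19 (ENSMUSG00000020911, chromosome 11, 100140810 to 100148665, minus strand), the type I keratin of bile ducts, stood at 0.486, 0.969 and 2.21 FPKM in the HKO livers, against 1.19, 0.835 and 0.802 FPKM in the Flox livers. HKO 1 was the lowest and HKO 3 the highest of all 6 libraries, with 16 and 76 reads, and the groups overlapped. The log2 fold change was 0.12 (SE 0.271, limma adjusted p = 0.899), and without HKO 3 it was -0.18.

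Krt7 (ENSMUSG00000023039, chromosome 15, 101411043 to 101430313, plus strand), the type II partner of Krt19 in ducts, stood at 0.0560, 0.212 and 0.291 FPKM in the HKO livers, against 0.138, 0.0478 and 0.219 FPKM in the Flox livers. That is 7, 25 and 38 reads in HKO and 15, 5 and 26 reads in Flox. Every library lay under the 0.5 FPKM of the filter, so Krt7 was not tested. HKO 3 was again the highest library, and HKO 1 and Flox 2 the lowest. The deposited length of 7049 bases joins the exons of 5 annotated transcripts and is 1.72 times that of the longest coding one (4094 bases), which lowers its FPKM accordingly. For Krt19 the same quotient was 1.18, and for the other 5 genes it was 1.

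Markers of the mesothelium, the keratin-rich cell layer on the liver surface, were also highest in HKO 3. So were the summed markers of stellate cells (45.5 FPKM), liver endothelial cells (35.7 FPKM) and monocyte-derived macrophages (72.7 FPKM). The 5 markers Msln, Upk3b, Wt1, Lrrn4 and Upk1b summed to 0.804, 2.42 and 7.99 FPKM in the HKO livers and to 1.15, 1.20 and 1.85 FPKM in the Flox livers. Msln and Upk3b reached 3.04 and 3.09 FPKM in HKO 3, and both were tested and did not pass (adjusted p = 0.749 and 0.748 in limma). All 5 markers had reads, the lowest of them Wt1 at 0.235 FPKM in HKO 3. The part of these cell types in Krt19, Krt7 and the Krt8 to Krt18 ratio of that library was not tested. Markers of keratinised or pancreatic epithelium were at or near 0: Krt5, Krt20, Prss2 and Amy2a1 had 0 reads in every library, and the 6 markers of that list summed to 0 to 0.583 FPKM in HKO and 0 to 0.259 FPKM in Flox.

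**Figure D3:**
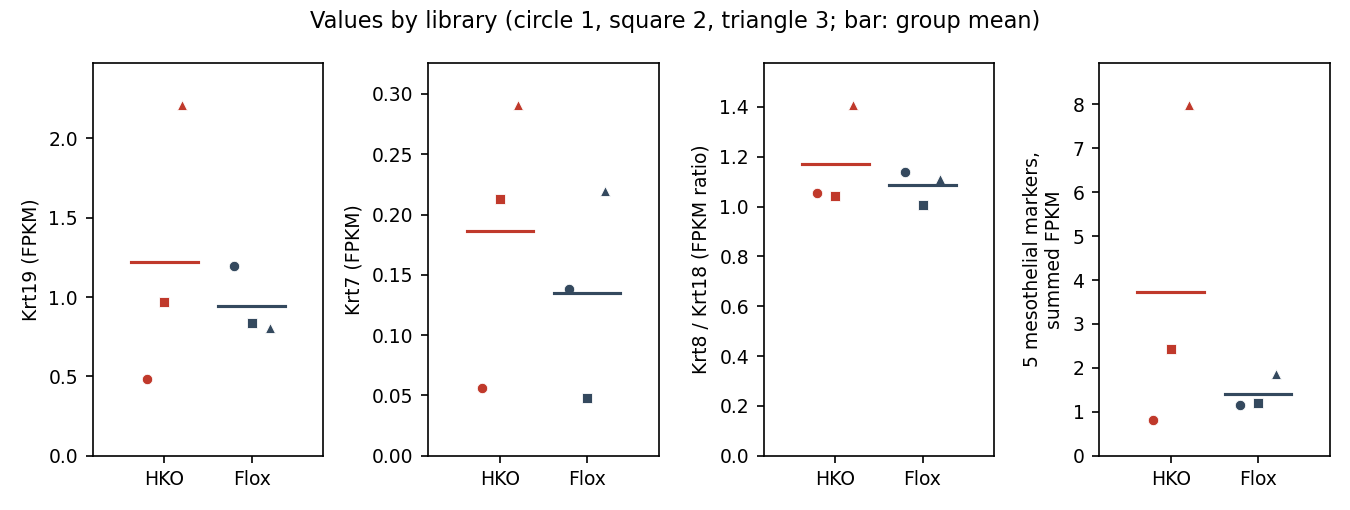
Krt19 and Krt7 (FPKM), the FPKM ratio of Krt8 to Krt18 and the summed FPKM of 5 mesothelial markers, each by library (HKO left in red, Flox right in blue, circle, square and triangle for libraries 1, 2 and 3, bar for the group mean). HKO 3 is the highest point in all 4 panels, at 2.21 FPKM, 0.291 FPKM, 1.41 and 7.99 FPKM. Summed markers of stellate cells, liver endothelial cells and monocyte-derived macrophages, not drawn, were also highest in HKO 3.

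Epcam and Sox9, the other ductal genes, overlapped between groups and did not pass the test. Epcam (ENSMUSG00000045394, chromosome 17, 87635979 to 87651106, plus strand), which encodes an adhesion molecule of bile duct and progenitor-like cells, stood at 1.05, 0.676 and 0.714 FPKM in the HKO livers, against 0.734, 0.528 and 1.02 FPKM in the Flox livers. HKO 1 and Flox 3 were the high libraries, and the groups overlapped. The log2 fold change was 0.046 (SE 0.140, limma adjusted p = 0.930). It was -0.046 without HKO 1 and -0.052 without Flox 2.

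Sox9 (ENSMUSG00000000567, chromosome 11, 112782224 to 112787760, plus strand), a transcription factor gene of duct cells and of some hepatocytes next to the portal vein, stood at 1.08, 1.85 and 1.38 FPKM in the HKO livers, against 1.67, 2.003 and 1.15 FPKM in the Flox livers. Every HKO value lay between, or just below, the Flox values, with HKO 1 the lowest and Flox 2 the highest library. The log2 fold change was -0.096 (SE 0.167, limma adjusted p = 0.872), and it turned to 0.014 without HKO 1 and to 0.013 without Flox 2. Under TPM it was 0.017, but relative to the median of all genes it stayed lower in HKO, at -0.13 under TPM and -0.090 in FPKM. The library with the most Krt19 (HKO 3) was high in neither Epcam nor Sox9.

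None of the 7 genes had a near-identical transcript elsewhere in GENCODE M21 (97% identity or more along 80% of the length or more). The closest was Gm5200, at 90.15% identity to Krt18, with 0 reads in all 6 libraries. Of the Krt7 exon bases, 1.09% overlap Gm671 on the other strand, and the exons of Krt18, Krt23, Krt19, Epcam and Sox9 overlap no other gene.

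Beyond the members, few keratin genes were detected. The table names 50 genes as Krt and a number, of which 37 had 0 reads in all 6 libraries, a level that allows up to 3 reads per library for counting error. Only 8 reached 10 reads in any library: the 5 keratins above, Krt10, Krt14 and Krt80. The other 5 with reads had at most 3 in a library. Krt10, best known from the skin, stood at 0.747, 0.737 and 0.561 FPKM in the HKO livers, against 0.954, 0.637 and 0.478 FPKM in the Flox livers (log2 fold change 0.00073, limma adjusted p = 0.999). Krt14, a basal epithelial keratin gene, had 0, 0 and 19 reads in the HKO livers and 6, 3 and 0 reads in the Flox livers, so HKO 3 was highest here too. Krt80 had 6, 0 and 2 reads in the HKO livers and 11, 14 and 5 reads in the Flox livers. Krt80 and Krt14 lay below the filter.

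Other genes of the bile duct epithelium were split in direction. Of 25 biliary and ductular genes listed besides the members, 11 were tested. The log2 fold change was above 0 in 6 and below 0 in 5. Its median was 0.078, against -0.0054 over all genes tested. Under TPM the list median was 0.26, against 0.15 over all genes tested. In limma and in voom 0 passed over all genes. An unadjusted 0.05 in limma was passed by 1 of the 11, beside 7.62% of all genes tested. The 14 others lay below the filter, among them Cftr, the chloride channel gene of duct cells, which did not exceed 0.0335 FPKM in any library (this gene was chosen after its values were seen).

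Slc4a2 encodes the anion exchanger that puts bicarbonate into bile. It was the 1 gene among the list's 11 tested whose groups did not overlap, beside 13.3% of all genes tested. It stood at 2.83, 3.28 and 3.53 FPKM in the HKO livers, against 2.61, 2.43 and 2.58 FPKM in the Flox livers (log2 fold change 0.25 with an SE of 0.0997, limma adjusted p = 0.648). Cdh1, which encodes E-cadherin, stood at 8.44, 17.03 and 11.01 FPKM in the HKO livers, against 9.15, 9.13 and 8.52 FPKM in the Flox livers, with HKO 2 high. Spp1, the osteopontin gene of ducts and macrophages, stood at 24.8, 27.3 and 27.5 FPKM in HKO, against 30.2, 22.4 and 23.3 FPKM in Flox. Both genes overlapped between groups, Spp1 with Flox 1 as its highest library. The values of Atp1b1, a sodium pump subunit gene, were 20.1, 20.6 and 23.4 FPKM in HKO and 17.99, 14.8 and 20.95 FPKM in Flox. Car2, which encodes a carbonic anhydrase, stood at 1.14, 0.965 and 1.36 FPKM in HKO and 1.67, 2.31 and 0.958 FPKM in Flox. Tm4sf4, a tetraspanin-like gene and the most abundant of this list, stood at 85.5, 65.2 and 57.6 FPKM in HKO and 79.2, 78.5 and 58.0 FPKM in Flox. Cdh1, Spp1, Atp1b1, Car2 and Tm4sf4 overlapped between groups, and their adjusted p lay between 0.685 and 0.939 in limma. All 29 biliary markers together, 4 members included, summed to 138 to 156 FPKM in HKO and 127 to 157 FPKM in Flox. Tm4sf4, Spp1, Atp1b1 and Cdh1, at means of 70.7, 25.9, 19.6 and 10.5 FPKM over all libraries, made up most of these sums.

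Genes of the structures that hold keratin filaments were split in direction too. Of 21 filament partners (linker proteins, desmosome proteins and other filaments), 17 were tested, 10 with a higher and 7 with a lower mean in HKO, and the median log2 fold change was 0.055, and 0.22 under TPM, where that of all genes was 0.15. In limma and in voom 0 passed over all genes. An unadjusted 0.05 in limma was passed by 1 of the 17, beside 7.62% of all genes tested. That 1 gene was Lmnb1, a nuclear lamin gene, at 1.64, 1.46 and 1.49 FPKM in the HKO livers, against 2.59, 2.34 and 2.05 FPKM in the Flox livers, without overlap (log2 fold change -0.39 with an SE of 0.101, limma adjusted p = 0.580).

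Desmosome genes went both ways within this list. Pkp2, a plakophilin gene, stood at 5.43, 6.56 and 5.83 FPKM in HKO and 6.80, 7.90 and 6.66 FPKM in Flox, while its relative Pkp4 stood at 13.7, 15.2 and 15.1 FPKM in HKO and 13.4, 11.8 and 12.7 FPKM in Flox. The desmosomal cadherin gene Dsg2 stood at 14.7, 22.0 and 17.9 FPKM in HKO and 15.3, 13.2 and 16.8 FPKM in Flox, and Dsc2 at 8.57, 14.2 and 9.63 FPKM in HKO and 13.4, 14.6 and 11.6 FPKM in Flox. All HKO libraries lay below the Flox libraries for Pkp2 and above them for Pkp4, and Dsg2 and Dsc2 overlapped. Over the 17 tested genes of the list, HKO lay wholly above Flox in 1 and wholly below in 3. Over all genes tested the shares were 6.06% and 7.21%. Periplakin (Ppl), a linker, stood at 2.92, 2.18 and 2.31 FPKM in HKO and 1.64, 1.27 and 2.43 FPKM in Flox, and the nuclear lamin gene Lmna at 9.60, 6.46 and 7.44 FPKM in HKO and 8.80, 9.12 and 7.39 FPKM in Flox. The adjusted p of these 6 genes lay between 0.667 and 0.840 in limma.

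Of 16 genes for proteins found in Mallory-Denk bodies or bound to keratins under stress, 15 were tested. Of these, 6 had a higher and 9 a lower mean in HKO, and 0 passed over all genes in limma or voom. An unadjusted 0.05 in limma was passed by 1 of the 15, beside 7.62% of all genes tested. The median log2 fold change was -0.0085, and it was 0.17 under TPM and 0.041 under quantile normalization, where those of all genes were 0.15 and 0.013. Hspb1, which encodes the small heat shock protein HSP25, stood at 16.7, 16.5 and 11.1 FPKM in the HKO livers, against 28.7, 29.4 and 18.9 FPKM in the Flox livers (log2 fold change -0.75 with an SE of 0.219, limma adjusted p = 0.629). Sqstm1, the gene of p62, the adaptor of protein aggregates that marks these bodies, stood at 119, 106 and 100.05 FPKM in HKO, against 129.9, 142 and 124 FPKM in Flox (log2 fold change -0.28 with an SE of 0.122, limma adjusted p = 0.651). Both genes had all HKO libraries below all Flox libraries. In all, 5 of the 15 genes did not overlap between groups, 1 above and 4 below, beside 13.3% of all genes tested. Among the most abundant others, Ubb (149 to 223 FPKM in HKO and 198 to 290 FPKM in Flox) and Hspa8 (186 to 223 FPKM in HKO and 188 to 225 FPKM in Flox), overlapped. The 14-3-3 gene Ywhaq stood at 17.7, 19.9 and 19.2 FPKM in HKO and 17.6, 15.6 and 15.9 FPKM in Flox, and Ywhah at 10.6, 10.3 and 11.8 FPKM in HKO and 11.6, 12.5 and 12.7 FPKM in Flox. The groups were apart for Ywhaq and overlapped for Ywhah.

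Notch and YAP signalling direct biliary identity, and 17 of their 23 listed genes were tested. Of these, 7 had a higher and 10 a lower mean in HKO, with a median log2 fold change of -0.058, against -0.0054 over all genes tested. Under TPM the list median was 0.044, against 0.15 over all genes tested, so it lay below the median of all genes under both scalings. In limma and in voom 0 passed over all genes, and 2 of the 17 passed an unadjusted 0.05 in limma, beside 7.62% of all genes tested. These 2 were Amotl2, a YAP target and inhibitor, at 5.93, 7.18 and 4.67 FPKM in HKO and 8.46, 9.74 and 6.97 FPKM in Flox, and Ajuba, a scaffold of the pathway, at 1.53, 1.77 and 1.94 FPKM in HKO and 1.23, 1.48 and 1.09 FPKM in Flox. Their log2 fold changes were -0.45 and 0.28, both with an adjusted p of 0.648 in limma. The YAP target Cyr61 stood at 10.1, 18.3 and 7.96 FPKM in HKO and 15.8, 16.3 and 16.4 FPKM in Flox, and Yap1 itself at 7.07, 7.24 and 6.97 FPKM in HKO and 7.28, 7.91 and 8.16 FPKM in Flox. Notch1 stood at 0.693, 0.947 and 0.739 FPKM in HKO and 0.860, 1.4999 and 0.949 FPKM in Flox. Its target Hes1 stood at 6.17, 5.29 and 4.18 FPKM in HKO and 9.17, 7.47 and 4.73 FPKM in Flox. Of these 6 genes, Ajuba had all HKO libraries above and Yap1 all below the Flox libraries, and the others overlapped. Over the 17 tested genes of the list, HKO lay wholly above Flox in 1 and wholly below in 3. Over all genes tested the shares were 6.06% and 7.21%.

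Krt23 was set beside genes of the PPARalpha programme because of its known dependence on that receptor. The list held 15 such genes, all tested, with the receptor genes and Myc among them. Their log2 fold change was above 0 in 3 and below 0 in 12. Cyp4a14 was lower by this measure, though its FPKM mean was 77.6 in HKO and 65.2 in Flox. In limma and in voom 0 passed over all genes, and 4 of the 15 passed an unadjusted 0.05 in limma, beside 7.62% of all genes tested. The groups did not overlap in 5 of the 15, 1 above and 4 below, beside 13.3% of all genes tested. The median log2 fold change was -0.33, against -0.0054 over all genes tested. Under TPM the list median was -0.15, against 0.15 over all genes tested. The peroxisomal thiolase gene Acaa1b stood at 363, 301 and 370.0 FPKM in HKO, against 583, 741 and 554 FPKM in Flox (log2 fold change -0.85 with an SE of 0.163, limma adjusted p = 0.580). Like Krt23, it had all HKO libraries below all Flox libraries.

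The lipid droplet gene Plin2 was likewise without overlap, at 124, 112 and 128 FPKM in HKO, against 154, 229 and 174 FPKM in Flox (log2 fold change -0.59 with an SE of 0.167, limma adjusted p = 0.609). Rxra, the gene of the receptor's partner, was higher in every HKO library, at 116, 93.3 and 102 FPKM in HKO and 73.97, 79.98 and 92.0 FPKM in Flox. The hydroxylase genes Cyp4a10 and Cyp4a14 behaved otherwise (both chosen after their values were seen). Cyp4a14 stood at 192, 37.2 and 3.34 FPKM in HKO, against 41.5, 36.3 and 118 FPKM in Flox, and Cyp4a10 at 130.2, 50.1 and 5.40 FPKM in HKO, against 47.8, 63.6 and 137 FPKM in Flox. HKO 1, the lowest library for Krt23, was the highest for Cyp4a14.

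The genes whose pattern over the 6 libraries was most like that of Krt23 were, among 8978 candidate genes, Ndrg2, Gstm2, Maob, Rgn and Emc2, at a Pearson r of 0.985 to 0.993 on log2(FPKM + 1). They share with Krt23 libraries, scaling and the gap between groups, and the likeness is a description. Gstm2, a glutathione transferase gene, stood at 17.02, 18.9 and 19.8 FPKM in HKO, against 45.5, 34.6 and 31.2 FPKM in Flox. Maob, which encodes a monoamine oxidase, stood at 72.8, 77.0 and 79.8 FPKM in HKO, against 109.8, 100.8 and 93.3 FPKM in Flox. Rgn, which encodes the calcium-binding protein regucalcin, stood at 712, 815 and 835 FPKM in HKO, against 1149, 1069 and 941 FPKM in Flox. In all 5 genes every HKO library lay below every Flox library, and HKO 1 was the lowest and Flox 1 the highest library, as for Krt23.

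**Figure D4:**
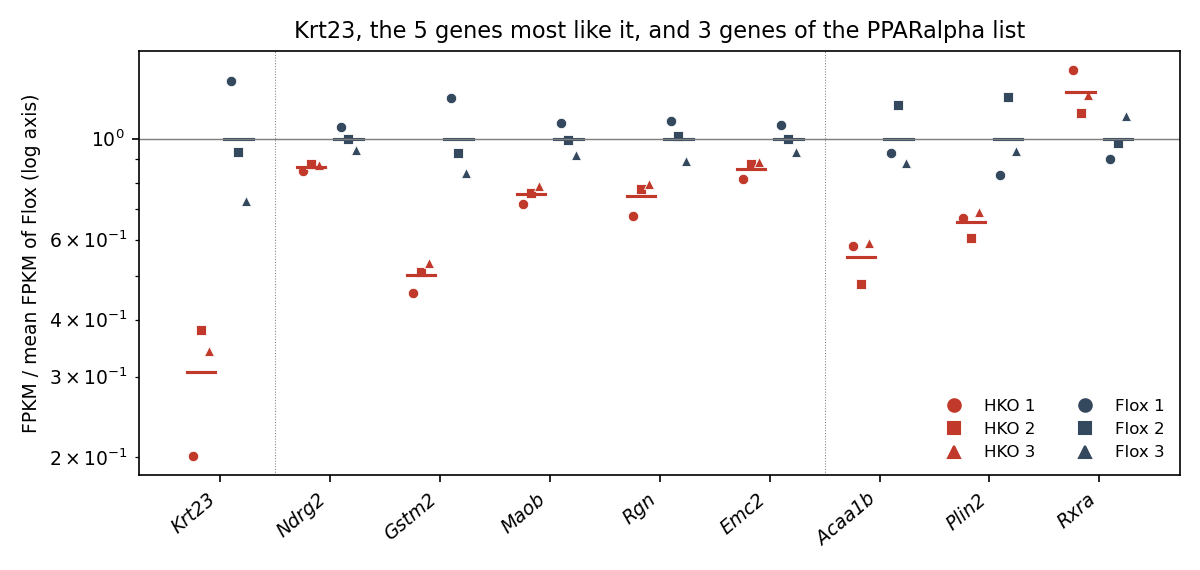
FPKM divided by the mean FPKM of the Flox group (log axis) for Krt23, for the 5 genes most like it over the 6 libraries (chosen for that) and for 3 genes of the PPARalpha list, by library (HKO left in red, Flox right in blue, bar for the group mean). Every HKO point lies below every Flox point except for Rxra, where every HKO point lies above, and Krt23 has the lowest ratio of group means (0.307). The 3 PPARalpha genes are all among those without overlap (1 above and 4 below of the 15 listed), and the rest of that list overlapped.

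Krt8 and Sox9 had other companions. Those most like Krt8 were Kptn, Lgals1, Cldn14, Klc4 and Mgst1 (r = 0.989 to 0.997). Lgals1, which encodes galectin-1, stood at 18.6, 10.1 and 22.9 FPKM in HKO and 35.1, 55.8 and 20.7 FPKM in Flox, with Flox 2 the highest and HKO 2 the lowest library, as for Krt8. Those most like Sox9 were Mbip, Nedd4l, Cpeb2, Chka and Alas2 (r = 0.981 to 0.985), all with overlapping groups. The 3 sets of 5 genes share no gene.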

How the data were processed

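The authors deposited 1 table of FPKM values, 1 per gene and library, with gene lengths. The submitters' processing notes name the builds GRCm38 and mm10. No aligner, counter or annotation release is given in the sources used here. Per the labels' protocols, total RNA (1.3 µg) entered a NEBNext Ultra RNA library, a kit that does not mark strand.

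Multiplying FPKM by gene length gave whole multiples of 1 library-specific step for 100% of the values above 0 (within 0.02 reads). The library size behind the FPKM was 0.934 to 1.06 times the recovered reads, and 1 FPKM in a gene of 1 kb stood for 14.9 to 18.5 reads. Voom on recovered reads called 0 genes higher and 3 lower.

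FPKM are not counts, so HKO and Flox were compared with limma 3.58.1 in R 4.3.3 (trend, robust, two-sided) on log2(FPKM + 1). A gene was tested where 3 or more of the 6 libraries reached 0.5 FPKM. P-values were adjusted over all genes tested (threshold 0.05). The procedure was tested on simulated data. Copies were sought with blastn 2.17.0 in GENCODE M21. RefSeq upstream sequences matched 5 of the 7 members. The 250 bases upstream were cut where they entered the deposited gene model.

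Members and lists were chosen with earlier results of these data known. Genes named are the members, G3bp1, keratin genes with at least 10 reads in a library, the 4 genes of each list with the smallest p and the 4 with the highest mean, and the 5 protein-coding genes (mean of at least 1 FPKM) most like Krt23, Krt8 or Sox9. A few genes that this rule names are not reported here. Alternatives were a pseudocount of 0.1, no filter, a mean of at least 1 FPKM, TPM, quantile normalization, voom, no trend, a replicate block and each library left out.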

Additional observations from a re-analysis of the deposited data

How the results depend on the processing

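Under all 14 alternatives, 0 members besides Krt23 and 0 genes in each of the 5 lists passed, where tested. Epcam was not tested with a mean of at least 1 FPKM. Over all genes at most 12 lower and 1 higher passed under any alternative, so these counts of 0 could hardly differ and carry little weight. Over all genes, 1 gene was lower in HKO, against 3 with voom, 0 without a filter and 0 with the replicate block. With 1 library left out the count was 0 to 12 lower and 0 to 1 higher, the highest of each without HKO 1 and 0 of each without HKO 2, HKO 3, Flox 1 or Flox 2. The replicate numbers did not pair the libraries: the deviations of same-numbered libraries correlated at 0.0215, 0.0150 and 0.0704. The block changed no call of a member. The Krt23 log2 fold change was -1.52 with a pseudocount of 0.1, -1.67 with voom and -0.92 to -0.65 with 1 library left out. Krt19 lay between -0.18 and 0.38, Epcam between -0.052 and 0.15 (-0.046 without HKO 1) and Sox9 between -0.23 and 0.014 (0.013 without Flox 2) with 1 library left out, and Sox9 at 0.017 under TPM. The Krt8 to Krt18 ratio differed by -0.045 to 0.17 with 1 library left out, by 0.096 in the replicate block (exact permutation p = 0.75), and was below 0 without HKO 3. Under TPM, which raises the median of all genes by 0.15, the list medians were 0.26 (biliary), 0.22 (filament partners), 0.17 (Mallory-Denk), 0.044 (Notch and YAP) and -0.15 (PPARalpha). The Mallory-Denk median was 0.041 under quantile normalization and -0.11 to -0.0075 with 1 library left out. The Notch and YAP median was -0.12 with a pseudocount of 0.1, -0.13 with voom and -0.096 to -0.023 with 1 library left out, and the PPARalpha median -0.47 to -0.23. For the biliary genes and filament partners the ranges were 0.015 to 0.16 and 0.0069 to 0.056. The causes of these moves were not tested. Krt23, Krt7, Krt19 and Epcam rest on 5 to 76 reads per library, which limits their precision.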
